A study of Mus musculus with 6 samples.

Results

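The hypoxia and glycolysis genes described here are 33 genes chosen by name for what their products do, and they were matched by symbol among the 30406 genes listed for every library. They cover oxygen sensing, glucose uptake, the steps of glycolysis, the handling of pyruvate, lactate and acid, other targets of the hypoxia-inducible factors (HIF) and glycogen synthesis. All 33 symbols were found, under 34 gene identifiers, because Aldoa has a pair of them. ENSMUSG00000030695 was used for Aldoa, and the other, ENSMUSG00000114515, held at most 6 UMIs in the stromal nuclei of any library.

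The study followed the periosteum, the tissue that lines the outer surface of bone, after fracture by single-nucleus RNA sequencing. It holds 6 libraries in 4 groups, with 2 of uninjured periosteum, 2 from day 3 after fracture, 1 from day 5 and 1 from day 7. All came from twelve-week-old C57BL6 mice, males and females mixed, and the fracture was an open, non-stabilized fracture of the tibia. The uninjured libraries hold scraped periosteum pooled from 4 mice each, and the injured libraries hold activated periosteum with hematoma, pooled from 4 to 9 mice, so tissue and injury change together.

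Oxygen supply is read in cells by prolyl hydroxylases, which mark the alpha subunits of HIF for destruction while oxygen is present. When oxygen is short the subunits accumulate and raise transcription of genes for glucose transporters, glycolytic enzymes, lactate export and acid balance. Cartilage, which forms in the fracture callus, has no blood vessels, and its cells are known to live largely on glycolysis.

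The deposited barcodes numbered 13551 with 55293921 UMIs, between 1499281 and 29796296 per library. Limits on genes and on mitochondrial and ribosomal protein UMIs kept 8073 nuclei, and 6488 were left after 1585 muscle nuclei had been set aside. The other nuclei were clustered without the 33 genes, the marker genes and the pathway genes among the features, and clusters were named from marker genes. Levels are given in CPM, the UMIs (molecules counted) of a gene per 1000000 UMIs of the nuclei concerned in a library. Stromal nuclei, the 3014 fibroblast-like, injury-induced fibrogenic cell (IIFC)-like, osteoblast-like and chondrocyte-like nuclei together, numbered 132 and 396 in the uninjured libraries, 145 and 291 on day 3, 1215 on day 5 and 835 on day 7. No cluster met the naming rule for stem/progenitor cells or tendon cells. Among barcodes, 18 occurred in more than 1 library, 4 of them among the nuclei kept. The libraries stood apart in mitochondrial UMIs, which made up 0.345% and 0.468% of stromal UMIs in uninjured replicate 2 and day 3 replicate 2 and at most 0.0271% in the others. They were made with different Cell Ranger versions, 6.0.0 for uninjured replicate 1 and days 5 and 7 and 7.1.0 for the rest, so day 3 has no library of the same version on days 5 and 7.

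The stretch before the transcription start was read for the core of the HIF binding motif, which is ACGTG or GCGTG on either strand. In the 250 bases upstream of the start in RefSeq (GRCm38.p6), 25 of the 30 members with an entry held at least 1 match, 83.3%, as did 11226 of 27025 genes in all, 41.5%. A gene counted if any of its promoters held a match. By promoter the shares were 73.2% of the members' 41 and 38.6% of all 32851. The members' promoters had a median GC content of 62.8% and all promoters 52.4%, and this difference was not accounted for. Car12, Gbe1, Gpi1, Gys1 and Tpi1 held no match in this window, and Epas1, Ndrg1 and Slc2a3 had no entry. Windows around matches are shown for 4 members to which the results below return, on the strand of the gene, with matches in capitals (CACGT and CACGC are the motif on the other strand). A match describes the letters only.
Bnip3 (chr7:138909584-138909638, minus strand): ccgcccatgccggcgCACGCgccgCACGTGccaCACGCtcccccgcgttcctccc
Hk2 (chr6:82774477-82774531, minus strand): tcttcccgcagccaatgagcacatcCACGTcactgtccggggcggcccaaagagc
Pgk1 (chrX:106186925-106186979, plus strand): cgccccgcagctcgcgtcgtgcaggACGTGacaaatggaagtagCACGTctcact
Slc2a1 (chr4:119108659-119108713, plus strand): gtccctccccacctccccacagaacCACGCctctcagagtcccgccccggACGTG

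The first comparison asked which of these genes differed in stromal nuclei, all stromal populations together, 3 days after fracture. Hif1a, the acid regulator Car12 and the glycolytic enzymes Hk2, Pgk1, Eno1 and Pkm were higher on day 3 than in uninjured periosteum, and the glucose transporter Slc2a1 was lower. UMIs were summed per library and tested with edgeR's quasi-likelihood test, and a gene is called higher or lower at an adjusted p under 0.05. Of the 33 members, 28 passed the filter on low counts, and Ankrd37, Car9, Pfkl, Pgam1 and Slc16a3 did not. Of the 28, 6 were called higher, where 3.66% of all 10015 genes tested were, and 1 lower, where 4.99% were. The median log2 fold change of the 28 was 0.65 and that of all genes tested 0.02. Of the 21 members not called, 13 had a log2 fold change above 0 and 8 below.

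**Figure D1:**
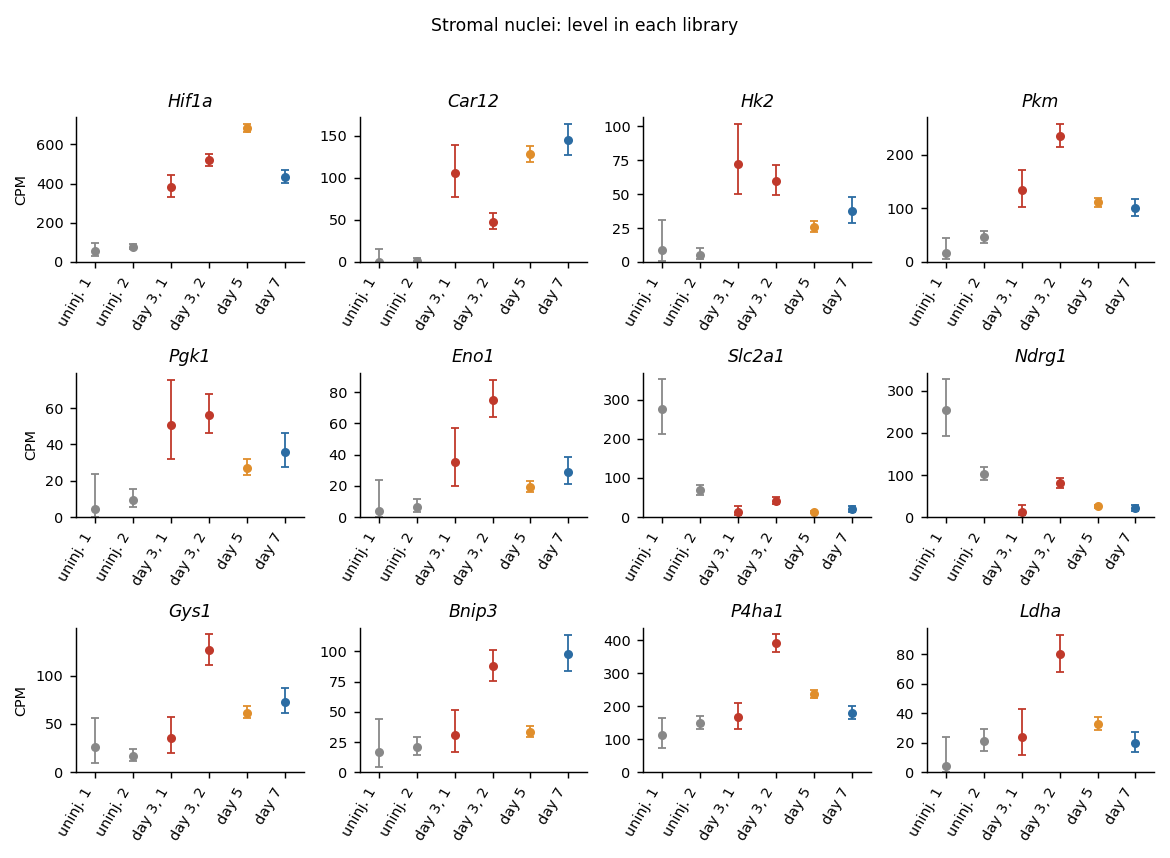
Levels of 12 members in stromal nuclei of each library, in CPM on linear axes that start at 0; points are libraries and bars are exact Poisson 95% intervals of the count. Hif1a lay at 55.8 and 77.7 CPM in the uninjured libraries and at 384 and 521 on day 3, and Slc2a1 at 275 and 68.8 against 13.2 and 41.7.

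Among the oxygen-sensing genes, Hif1a (chromosome 12, 73901375 to 73947530, plus strand, GRCm38), which encodes the HIF-1 alpha subunit, was at 55.8 and 77.7 CPM in the uninjured libraries, 384 and 521 on day 3, 682 on day 5 and 435 on day 7. Every injured library was above both uninjured libraries, and the day 3 change was a log2 fold change of 2.65 (SE 0.35, n = 2 libraries per group, adjusted p = 0.00335 by edgeR's quasi-likelihood test), 6.27-fold. Epas1, which encodes the HIF-2 alpha subunit, was at 55.8 and 13.5 CPM, then 57.02 and 23.8, 7.8 and 27.8, so the uninjured and day 3 libraries overlapped (log2 fold change 0.43). Egln1, the main prolyl hydroxylase, was at 21.5 and 36.5 CPM in the uninjured libraries and 43.9 and 88.8 on day 3, without overlap, but was not called (log2 fold change 1.02, adjusted p = 0.251, edgeR). Egln3, a prolyl hydroxylase that is itself a HIF target, was low, between 2.1 and 16.01 CPM in all 6 libraries.

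Glucose enters cells through the transporters Slc2a1 (GLUT1) and Slc2a3 (GLUT3). Slc2a3 was at 17.2 and 40.0 CPM in the uninjured libraries, 54.8 and 41.2 on day 3, 21.6 on day 5 and 22.0 on day 7, and was not called (log2 fold change 0.53, adjusted p = 0.652, edgeR). Slc2a1 (chromosome 4, 119108711 to 119137983, plus strand) fell from 275 and 68.8 CPM to 13.2 and 41.7, with 13.4 on day 5 and 20.3 on day 7 (log2 fold change -2.55, SE 0.67, adjusted p = 0.0432, edgeR). This call rested on a small set of nuclei. A fibroblast-like cluster of 97 nuclei, led by Ntng1, Tenm2, Nlgn1, Luzp2 and Itgb4, made up 27.3% and 9.34% of stromal nuclei in the uninjured libraries and 1.38% and 1.72% on day 3. It held 87.5% and 94.0% of the stromal Slc2a1 UMIs of the uninjured libraries, at 590 and 540 CPM. In the other stromal nuclei Slc2a1 was at 58.0 CPM (8 UMIs) and 4.68 CPM (7 UMIs) in the uninjured libraries, 11.0 and 39.8 on day 3, 13.0 on day 5 and 20.3 on day 7. Without the cluster, an alternative added after the data had been seen, the log2 fold change was 0.55 (SE 1.04, adjusted p = 0.847, edgeR), while Pgk1, Eno1, Hk2, Pkm, Car12 and Hif1a were called higher as before. The call was also lost without uninjured replicate 1 (log2 fold change -1.33, adjusted p = 0.160, edgeR) and without day 3 replicate 2 (-3.45, adjusted p = 0.0609, edgeR). The summed level of 6 erythroid genes in stromal nuclei was 249 and 21.2 CPM in the uninjured libraries and 17.5 and 8.2 on day 3, with 3 of the 6 at 0 in uninjured replicate 1 and 5 in day 3 replicate 1, and its part in the Slc2a1 change was not tested.

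**Figure D2:**
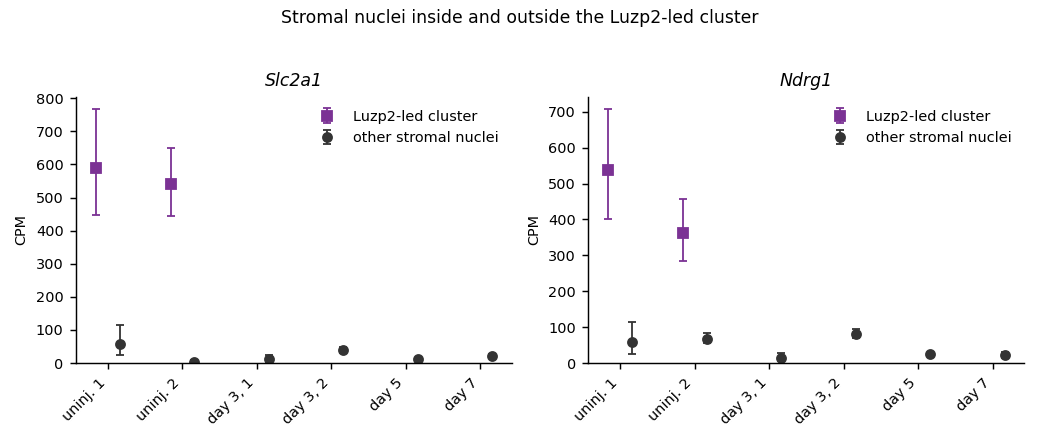
Slc2a1 and Ndrg1 levels in CPM in the Luzp2-led fibroblast-like cluster and in the other stromal nuclei, by library; bars are exact Poisson 95% intervals, and points with fewer than 20 nuclei are left out. Slc2a1 was at 590 and 540 CPM in the cluster in the uninjured libraries and at 58.0 or below in the other stromal nuclei of every library.

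At the entry of glycolysis, Hk2 (chromosome 6, 82725025 to 82774454, minus strand), the inducible hexokinase that traps glucose in the cell, was at 8.6 and 5.3 CPM in the uninjured libraries and 72.4 and 59.7 on day 3, from 11 and 156 UMIs. It was at 25.7 on day 5 and 37.7 on day 7, above both uninjured libraries on each day, and the day 3 log2 fold change was 3.39 (SE 0.61, adjusted p = 0.0110, edgeR). Hk1, the hexokinase of most tissues, had a log2 fold change of -0.02. Pfkfb3 and Pfkfb4 make the activator of phosphofructokinase, the main control point of the pathway. Pfkfb3 was at 25.8 and 44.7 CPM, then 54.8 and 63.1, 37.9 and 80.1, and Pfkfb4 at 51.6 and 22.4, then 54.8 and 37.4, 20.3 and 20.9, and neither was called (log2 fold changes 0.58 and 0.42). Pfkp, which encodes a phosphofructokinase, had a log2 fold change of -0.28 and Gpi1, the next enzyme after hexokinase, of 0.52.

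Of the lower steps of glycolysis, 3 of the 5 enzymes tested were called higher. Pgk1 (chromosome X, 106187100 to 106203699, plus strand), whose reaction yields the first ATP, was at 4.3 and 9.4 CPM in the uninjured libraries, 50.4 and 56.3 on day 3, 27.3 on day 5 and 36.0 on day 7 (log2 fold change 2.63, SE 0.58, adjusted p = 0.0221, edgeR). Eno1 (chromosome 4, 150236721 to 150248879, plus strand), the enolase of most cells, was at 4.3 and 6.5 CPM, then 35.1 and 75.2, 19.3 and 29.0 (log2 fold change 3.12, SE 0.62, adjusted p = 0.0151, edgeR). Pkm (chromosome 9, 59656368 to 59679375, plus strand), the pyruvate kinase that ends the pathway, was at 17.2 and 45.9 CPM, then 134 and 235, 111 and 100.4 (log2 fold change 2.28, SE 0.45, adjusted p = 0.0151, edgeR). For each of these enzymes all 4 injured libraries lay above both uninjured ones. Tpi1 had a log2 fold change of 1.31 and was not called. Aldoa, the aldolase of muscle and many other cells, was at 55.8 and 79.4 CPM in the uninjured libraries and 19.7 and 58.2 on day 3, with overlap and a log2 fold change of -0.87. Myofibre genes summed to 391 and 496 CPM in stromal nuclei of the uninjured libraries and to 41.7 and 166 on day 3. Without nuclei that held a myofibre UMI the calls of Eno1 and Slc2a1 were lost. Over all nuclei not set aside as muscle, Hk2 and Slc2a1 were not called, Epas1 was called lower (log2 fold change -2.54) and Pfkfb4 higher (1.70). These nuclei included an unnamed cluster of 445 with Csf3r, Dmd, Ttn and Neb among its leading genes. They also included an unnamed cluster of 115 led by Pax7, so they were not free of muscle genes. With 1 library left out, the fit takes the lone library of that group to vary like the other group's libraries. Without day 3 replicate 2 the calls of Eno1, Pgk1 and Pkm were lost and 3 members, Hk2, Car12 and Hif1a, were called higher, while without day 3 replicate 1 it was 11, with Bnip3, Gys1, Ldha, P4ha1 and Slc16a3 added. The counts of Ldha, Pkm, Eno1, Aldoa, Tpi1, Pgk1, Pgam1, Bnip3 and Gpi1 are uncertain to the extent that reads were split with annotated pseudogenes of at least 85% identity, of which Ldha has 21 and Pkm 10.

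Among the genes for pyruvate, lactate and acid, Car12 (chromosome 9, 66713686 to 66766845, plus strand), a membrane carbonic anhydrase that acts in acid balance, changed most. It was at 0 and 1.2 CPM in the uninjured libraries, 105 and 47.6 on day 3, 128 on day 5 and 144 on day 7, and 0 UMIs in uninjured replicate 1 allow up to 12.9 CPM. The summed UMIs were 2 of 1932437 in the uninjured and 146 of 2516877 in the day 3 libraries, a ratio of 56.0 with an exact 95% interval of 15.2 to 467 for counting error (adjusted p = 0.00563, edgeR). Hif1a was called under each of the 16 alternatives run for this comparison and Car12 under each of the 15 in which it could be tested, as thinned nuclei left too few UMIs of it. Ldha, which makes lactate from pyruvate, was at 4.3 and 21.2 CPM, then 24.1 and 80.1, 32.9 and 19.7, and was not called (log2 fold change 1.63, adjusted p = 0.183, edgeR). Slc16a3, the lactate exporter MCT4, was at 4.3 and 5.9 CPM in the uninjured libraries, 6.6 and 41.7 on day 3, 20.4 and 11.6 later, and did not pass the filter. Pdk1, which holds back the oxidation of pyruvate in the mitochondrion, had a log2 fold change of -0.69. Car9, the carbonic anhydrase best known as a hypoxia marker, held at most 10 stromal UMIs in any library.

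The other HIF targets did not move together. Bnip3, which acts in the removal of mitochondria, was at 17.2 and 21.2 CPM in the uninjured libraries, 30.7 and 87.8 on day 3, 33.5 on day 5 and 98.0 on day 7 (log2 fold change 1.51, adjusted p = 0.136, edgeR). P4ha1 and P4ha2 encode the catalytic subunits of collagen prolyl 4-hydroxylase. P4ha1 was at 112 and 151 CPM, then 167 and 391.6, 237 and 181, and P4ha2 at 43.0 and 43.5, then 39.5 and 110, 72.1 and 67.3. Neither was called. Ndrg1, a stress-responsive gene, was at 253.5 and 103.6 CPM in the uninjured libraries and 13.2 and 80.1 on day 3, without overlap (log2 fold change -1.90, adjusted p = 0.106, edgeR), and it was called lower without uninjured replicate 2 or without day 3 replicate 2. The Luzp2-led cluster held 86.4% and 42.0% of the stromal Ndrg1 UMIs of the uninjured libraries. Adm, a vasodilator peptide, was at 21.5 and 6.5 CPM, then 13.2 and 8.7, 2.8 and 2.3, and Kdm3a, a histone demethylase, had a log2 fold change of -0.38. Ankrd37 held at most 14 UMIs in any library. Of the glycogen genes, Gys1, the glycogen synthase of muscle and most tissues, was at 25.8 and 17.1 CPM, then 35.1 and 126, 61.8 and 73.1 (log2 fold change 1.96, adjusted p = 0.0754, edgeR). Gbe1, the branching enzyme, was at 112 and 109 CPM, then 85.5 and 130, 83.2 and 106.

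By library, 15 of the 28 members tested had both day 3 libraries above both uninjured ones, as did 28.4% of all genes tested, and 3 had both below, as did 23.1%. The 2 day 3 libraries differed from each other, with 27 of the 33 members at a higher CPM in replicate 2 than in replicate 1. In the uninjured libraries 20 of the 33 were higher in replicate 2. The day 3 libraries held 455973 and 2060904 stromal UMIs, and the share of all genes higher in replicate 2 was not computed. Markers of other states moved with the comparison. The 7 macrophage markers summed to 4.3 and 15.3 CPM in uninjured stromal nuclei, with all but Ptprc at 0 in replicate 1 and Adgre1 at 0 in replicate 2, and to 136 and 457 on day 3, with none at 0. The 6 proliferation markers summed to 12.9 and 11.8 CPM and to 533 and 434. The make-up of the stromal class changed too. Fibroblast-like nuclei numbered 100 and 195 in the uninjured libraries and 29 and 72 on day 3. IIFC-like nuclei numbered 23 and 132 in the uninjured libraries and 107 and 187 on day 3. This name joins clusters of unlike marker content. The cluster with 3 IIFC markers among its 10 leading genes held 1 and 5 nuclei in the uninjured libraries and 43 and 71 on day 3. The other IIFC-like clusters had 1 and 0 such markers there, so the name is weak for most uninjured nuclei that carry it. The part of these markers and of this make-up in the results was not tested. Among nuclei under 0.2% mitochondrial UMIs, an alternative added after the data had been seen, the same 6 members were called higher and Slc2a1 lower. Day 3 replicates against uninjured replicate 2, all made with Cell Ranger 7.1.0, showed all 6 higher. So did days 5 and 7 against uninjured replicate 1, all made with 6.0.0. These sets were not matched in the genes listed before the shared genes were taken. The uninjured libraries and day 3 replicate 2 listed 31055 genes. Day 3 replicate 1 and day 7 listed 32285, and day 5 listed 32287. The part of version and gene list in the results was not tested.

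Of further genes of these pathways, 5 of 28 tested HIF regulators and targets were called higher and 0 lower, with a median log2 fold change of 0.02. They included Hmox1, which degrades heme (log2 fold change 5.49), the collagen-modifying enzymes Plod2 (1.65) and Lox (1.73), and Fam162a (1.79). No gene was called by edgeR among 9 further glycolysis isozymes, 10 genes of pyruvate entry and gluconeogenesis and 16 glycogen genes, where 0, 1 and 2 had an unadjusted p under 0.05, as did 21.6% of all genes tested.

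The clearest difference lay between stromal populations of the callus. In chondrocyte-like nuclei of days 5 and 7, 23 of the 29 members tested were higher than in the other stromal nuclei of the same libraries, and 0 were lower, where 8.84% of all 9048 genes tested were called higher and 11.4% lower. The median log2 fold change of the 29 was 1.39 and that of all genes tested 0.01. The chondrocyte-like cluster held 162 nuclei on day 5 and 240 on day 7, and at most 6 in any other library. All 6 chondrocyte markers were detected in it, and its leading genes were Hapln1, Col11a1, Col2a1, Col9a1 and Acan. The test compared 2 chondrocyte-like with 2 other stromal sums with library as a block, which leaves 1 residual degree of freedom that edgeR's quasi-likelihood test moderates with the spread over all genes. The cluster was drawn from other genes of the same nuclei, so the p-values compare nuclei grouped by their expression and do not compare independent samples of tissue.

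**Figure D3:**
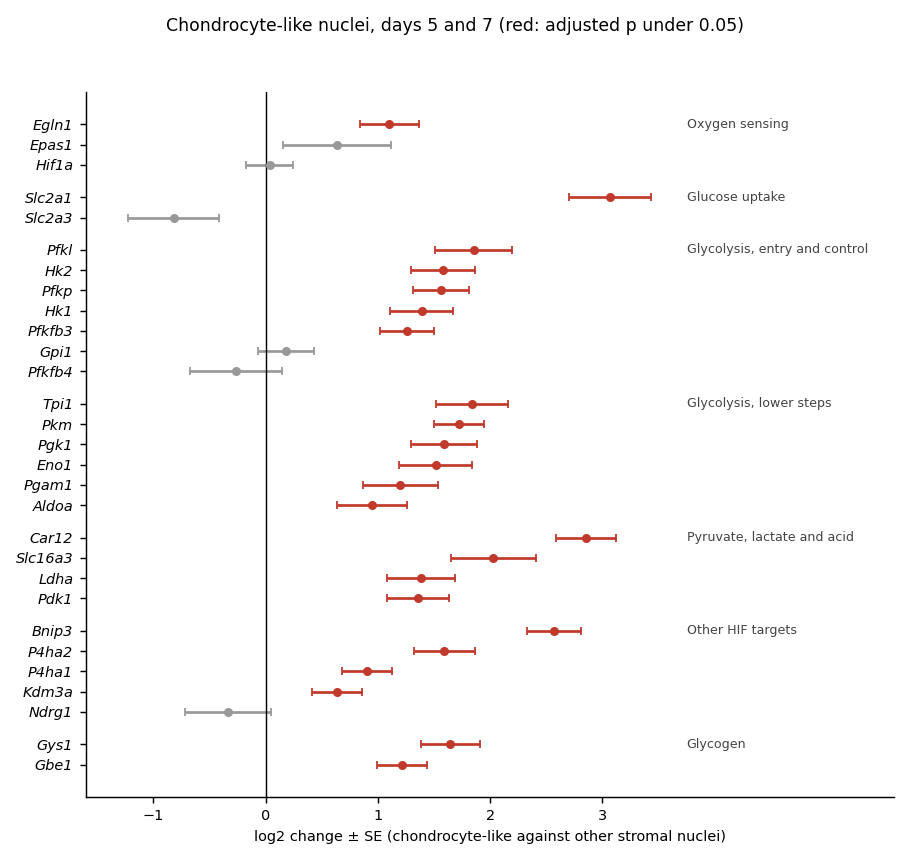
Log2 fold changes between chondrocyte-like and other stromal nuclei of days 5 and 7 for the 29 members tested, grouped by role; bars are standard errors. The 23 called members lay between 0.63 (Kdm3a) and 3.07 (Slc2a1), and Hif1a was at 0.04.

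Each of the 6 tested enzymes of the lower steps of glycolysis was called higher, from Aldoa at a log2 fold change of 0.95 to Tpi1 at 1.84. Pkm was at 244 and 199 CPM in chondrocyte-like nuclei of days 5 and 7 and at 87.0 and 55.7 in the other stromal nuclei (log2 fold change 1.73, SE 0.22, adjusted p = 1.07e-06, edgeR). Pgk1 was at 56.9 and 68.7 CPM against 22.0 and 21.1, and Tpi1 at 75.1 and 26.0 against 22.8 and 6.8. Of the 7 genes of entry and control, Hk1, Hk2, Pfkl, Pfkp and Pfkfb3 were called higher. Hk2 was at 59.0 and 65.0 CPM against 19.7 and 25.3, Pfkp at 115 and 128 against 49.6 and 35.4, and Pfkl at 46.1 and 33.4 against 12.7 and 11.0. Gpi1 (0.18) and Pfkfb4 (-0.26) were not called.

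The glucose transporters went separate ways. Slc2a1 was at 49.4 CPM (day 5) and 53.8 CPM (day 7) in chondrocyte-like nuclei against 6.94 and 5.06 in the other stromal nuclei, the largest fold among the 29 members tested (log2 fold change 3.07, SE 0.36, adjusted p = 2.89e-07, edgeR, 8.38-fold). Slc2a3 was at 12.9 and 13.0 CPM against 23.2 and 26.2 and was not called (log2 fold change -0.82, SE 0.40, adjusted p = 0.181, edgeR).

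Of the genes for pyruvate, lactate and acid, all 4 tested were called higher. Car12 was at 382 and 390 CPM against 82.4 and 32.9 (log2 fold change 2.85, SE 0.27, adjusted p = 5.03e-09, edgeR). Slc16a3 was at 48.3 and 29.7 CPM against 15.4 and 3.4, Ldha at 66.5 and 33.4 against 26.8 and 13.5, and Pdk1 had a log2 fold change of 1.36. Both glycogen genes were called higher, with Gys1 at 113 and 158 CPM against 52.7 and 34.6 and Gbe1 at 143 and 178 against 72.5 and 72.6. Of the other HIF targets, Bnip3 was at 107 and 228 CPM against 20.3 and 38.8 (log2 fold change 2.57, SE 0.24, adjusted p = 6.06e-09, edgeR). P4ha2 was at 123 and 148 CPM against 62.9 and 30.4, and P4ha1 and Kdm3a had log2 fold changes of 0.90 and 0.63, while Ndrg1 (-0.34) was not called.

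The HIF subunits themselves were not called in this comparison. Hif1a was at 646 and 429 CPM in chondrocyte-like nuclei and at 689 and 438 in the other stromal nuclei, a log2 fold change of 0.04 (SE 0.21, adjusted p = 0.947, edgeR), and Epas1 had a log2 fold change of 0.64 (SE 0.48). Egln1 was called higher, at 65.5 and 113 CPM against 40.9 and 42.2 (log2 fold change 1.10). By library, 24 of the 29 members were higher in chondrocyte-like nuclei on both days, where 27.9% of all genes tested were, and Slc2a3 and Hif1a were lower at both, where 41% of all genes were.

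The count depended on the test and on the reference. DESeq2 called 14 members higher, nuclei thinned to 500 UMIs gave 12 of the 18 members that could then be tested, and a comparison with osteoblast-like nuclei alone, added after the data had been seen, gave 8 of 27, Hif1a among them (log2 fold change 1.47, SE 0.34, adjusted p = 0.00225, edgeR). Against IIFC-like nuclei alone it was 21 of 29. The shares of all genes called under these alternatives are not given, so the counts do not show whether the members changed more than other genes. Bnip3, Car12, Gys1, Pfkp, Pkm and Slc2a1 were called under each of the 10 alternatives, and Pfkl under each of the 9 in which it could be tested, thinned nuclei being the exception.

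The 4 stromal populations set beside each other showed where the members stood. Of the 33 members, 25 on day 5 and 26 on day 7 had their highest level of these populations in chondrocyte-like nuclei. The share of all genes highest there was not computed. The counts include members with few UMIs. On day 7 Adm and Ankrd37 held 0 UMIs and Car9 held 1 UMI in the other stromal nuclei. Car12 was at 7.2 and 5.0 CPM in fibroblast-like, 79.5 and 38.4 in IIFC-like, 186 and 41.5 in osteoblast-like and 382 and 390 in chondrocyte-like nuclei on days 5 and 7. Bnip3 was between 11.4 and 41.5 CPM in the other 3 populations. Hif1a was at 620 and 457 CPM in fibroblast-like, 772 and 454 in IIFC-like, 243 and 180 in osteoblast-like and 646 and 429 in chondrocyte-like nuclei. Osteoblast-like nuclei were thus lowest for Hif1a on both days, and the other populations lay close together on day 7. P4ha1 was at 448 CPM in osteoblast-like nuclei on day 5, above the 318 of chondrocyte-like nuclei, and at 207 against 291 on day 7. The osteoblast-like levels of day 7 rest on 56 nuclei with 72349 UMIs, so 3 UMIs already make 41.5 CPM there.

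**Figure D4:**
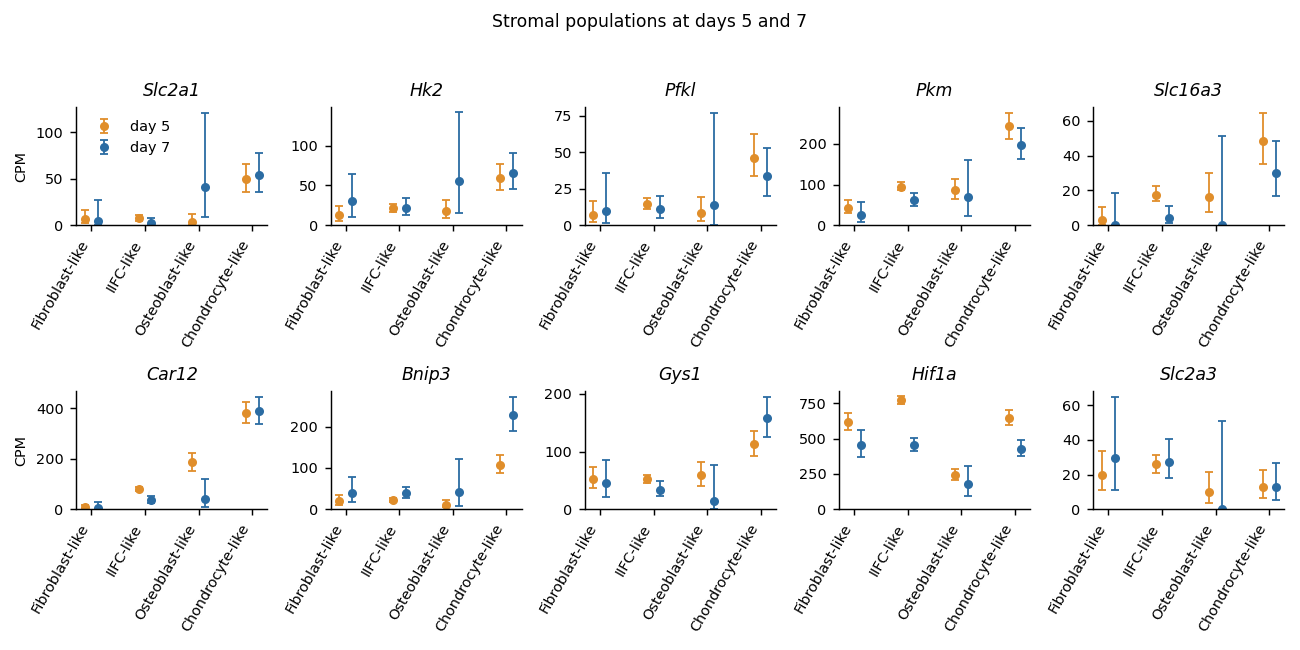
Levels of members in CPM in the 4 stromal populations on days 5 and 7; points are single libraries and bars exact Poisson 95% intervals of the count. Car12 reached 382 and 390 CPM in chondrocyte-like nuclei, while Hif1a was at 646 and 429 there and at 772 and 454 in IIFC-like nuclei.

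Of the further HIF regulators and targets, 12 of 27 tested were called higher in chondrocyte-like nuclei and 2, Angptl4 and Rora, lower, with a median log2 fold change of 0.66. Those higher included Higd1a, a protein of the mitochondrial inner membrane (log2 fold change 2.89), the mitochondrial adenylate kinase Ak4 (2.89), Stc2 (4.18), the collagen-modifying enzymes Loxl4 (3.31) and Plod2 (1.32), and the angiogenic factor Vegfa (1.36). Of 7 further glycolysis isozymes tested only Eno2, the neuronal enolase, was called, and it was lower (-2.57). Of 10 genes of pyruvate entry and gluconeogenesis, Pck2 was called higher (1.00) and Pdk4 lower (-2.39). Of 12 further glycogen genes, Ugp2, which makes the sugar donor for glycogen (1.74), Pgm2 (1.14) and Phka2 (0.70) were called higher.

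In endothelial-like nuclei, which numbered 209 and 250 in the uninjured libraries and 39 and 65 on day 3, 17 members passed the filter. Pkm was called higher on day 3, where 1.51% of all 6823 genes tested were, and 0 were called lower, where 1.76% were; 7 of the 17 members had an unadjusted p under 0.05, where 17.1% of all genes did. The median log2 fold change was -0.06 and that of all genes -0.01. Pkm was at 59.7 and 67.0 CPM in the uninjured libraries, 195 and 193 on day 3, 114 on day 5 and 125 on day 7 (log2 fold change 1.499, SE 0.33, adjusted p = 0.0490, edgeR). This call was lost under 9 of 12 alternatives, among them DESeq2 and the removal of any 1 of the 4 libraries. The HIF subunits had opposite signs. Epas1, which endothelial cells are known to express highly, was at 690 and 591 CPM in the uninjured libraries, 314 and 370 on day 3, 271 on day 5 and 265 on day 7 (log2 fold change -0.997, SE 0.27, adjusted p = 0.0944, edgeR). Hif1a was at 85.9 and 209 CPM, then 346 and 435, 412 and 302 (log2 fold change 1.297, adjusted p = 0.120, edgeR). All injured libraries thus lay below the uninjured ones for Epas1 and above them for Hif1a, yet neither passed the threshold. Hif1a was called without uninjured replicate 2, and with no filter on low counts Hif1a was called higher and Epas1 and Ndrg1 lower. By library, 6 members had both day 3 libraries above both uninjured ones, where 26.8% of genes did, and 5 had both below, where 20.8% did. Among the 16 further HIF regulators and targets tested, Rora was called lower (-1.48), and of 11 glycogen genes tested Epm2a was called lower (-3.27).

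In immune-like nuclei, 0 of the 19 members tested were called between day 3 and uninjured by edgeR and 0 by DESeq2, where 0.0188% of all 5307 genes were called higher and 0.867% lower, 0.886% in all, by edgeR. The median log2 fold change was 0.37 and that of all genes 0.15. Hif1a alone had an unadjusted p under 0.05, where 4.92% of all genes did (log2 fold change 1.68, adjusted p = 0.804, edgeR), at 104 CPM (1 UMI) and 106 in the uninjured libraries, 340 and 258 on day 3, 494 on day 5 and 163 on day 7. None of 10 further HIF regulators and targets tested was called by edgeR, and 3 had an unadjusted p under 0.05. By library, 6 members lay higher on day 3 without overlap, as did 19% of genes, and 3 lower, as did 16%. Uninjured replicate 1 held 15 immune-like nuclei with 9605 UMIs, so differences of a few UMIs could not be seen there.

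Immune-like and stromal nuclei of the same library were compared over all 6 libraries. Of 31 members tested, 3 were higher in immune-like nuclei, where 19.6% of all 11081 genes were, and 5 were lower, where 23.8% were. The median log2 fold change was 0.06 and that of all genes -0.08. The regulators of phosphofructokinase were higher. Pfkfb3 was at 0 and 117 CPM in uninjured immune-like nuclei, 221 and 193 on day 3, 154 on day 5 and 141 on day 7, above stromal nuclei in 5 of 6 libraries (log2 fold change 1.51, SE 0.27, adjusted p = 1.32e-04, edgeR). Pfkfb4 was at 312 (3 UMIs) and 65.2 CPM, then 56.1 and 101, 40.4 and 54.2, above in 6 of 6 (1.11, adjusted p = 0.00151, edgeR). Egln3 was at 0 and 27.5 CPM, then 3.3 and 66.8, 6.6 and 16.3, above in 4 of 6 (1.497, adjusted p = 0.00770, edgeR).

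**Figure D5:**
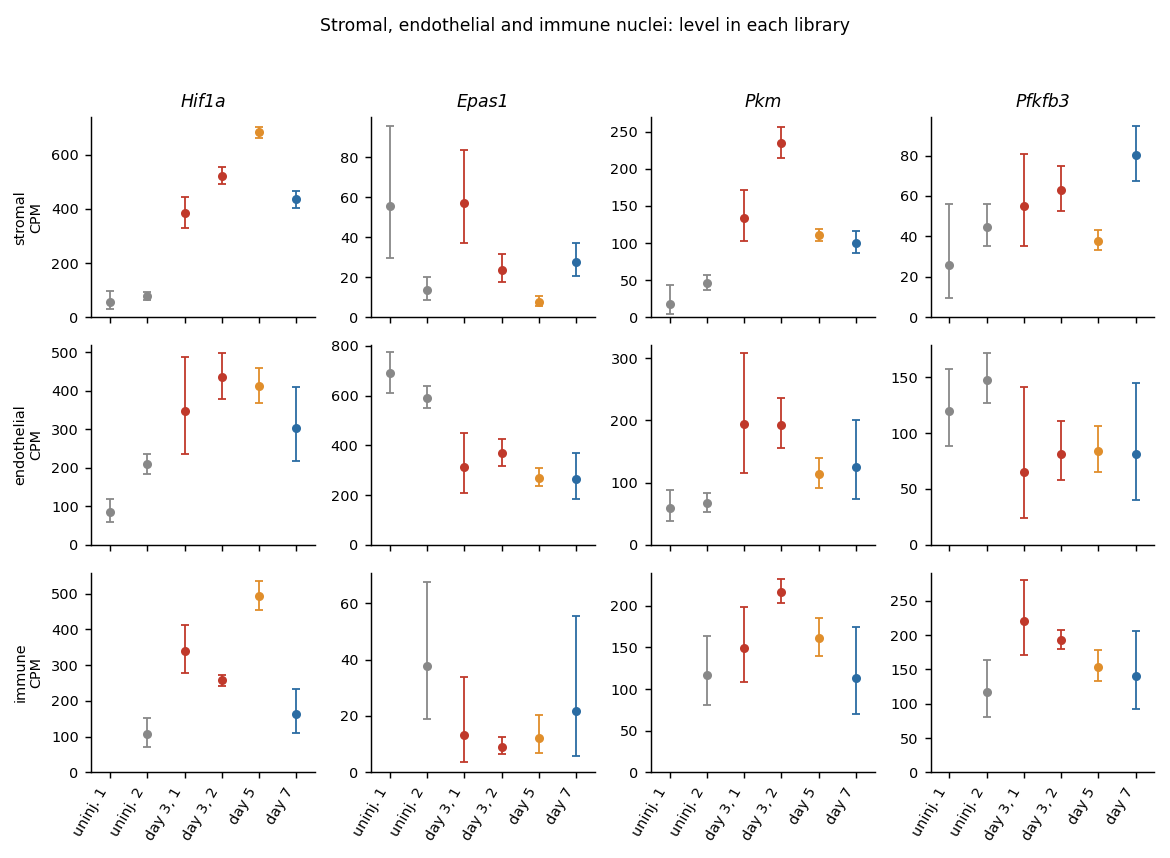
Levels in CPM of members in stromal, immune-like and endothelial-like nuclei by library; bars are exact Poisson 95% intervals, and points with fewer than 20 nuclei are left out. Epas1 was at 265 to 690 CPM in endothelial-like nuclei and at 57.02 or below in stromal nuclei, and Pfkfb3 was at 117 to 221 CPM in the immune-like nuclei shown.

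The members lower in immune-like nuclei included P4ha2 (log2 fold change -3.11, adjusted p = 9.03e-07, edgeR), at 0 to 15.6 CPM across the 6 libraries and below stromal nuclei in all of them. Car12 (-3.23, adjusted p = 2.59e-06, edgeR) was at 0 to 32.5 CPM and below on day 3, 5 and 7, with both classes at 0 in uninjured replicate 1 and 3.4 CPM against 1.2 in uninjured replicate 2. Adm (-2.49) was at 0 to 1.6 CPM, Ndrg1 (-0.81) at 5.4 to 208 and Gys1 (-0.86) at 0 to 71.2. In every library, 3 members were higher in immune-like nuclei, as were 8.59% of all genes tested, and 2 were lower, as were 17.9%. Hif1a was not called (-0.55, SE 0.29, adjusted p = 0.134, edgeR), though it was called lower with RLE size factors and by DESeq2. Of the further HIF regulators and targets, 3 of 28 were called higher in immune-like nuclei and 10 lower; of 9 isozymes the counts were 2 and 3, of 11 genes of pyruvate entry 0 and 2, and of 17 glycogen genes 4 and 2.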

How the data were processed

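The authors deposited a matrix of raw UMI counts for each library, genes by nuclei, made with Cell Ranger (6.0.0 or 7.1.0) from intronic and exonic reads on mm10, according to the methods and the submitters' processing notes, and not normalized. A nucleus was kept if it held 200 to 5000 genes, less than 2% of mitochondrial UMIs and less than 1.5% from ribosomal protein genes. Myogenic clusters were set aside in each library and again in the combined data, and the rest was integrated with Seurat 5.3.0 (20 components, resolution 1.3) and named from marker lists. Scrublet marked 21 nuclei, under 0.5%, so it did not work as a doublet caller, and doublets were kept.

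UMIs were summed per library and class and tested with edgeR 4.0.16 (filterByExpr, TMM, glmQLFit, glmQLFTest), with library as a block where classes of the same libraries were compared. P-values were adjusted by Benjamini-Hochberg over all genes tested, and the threshold was 0.05. No test was made against days 5 and 7, each of which is a single library. P-values of the day 3 comparisons measure the spread between libraries, which may be technical. Where library was a block, they measure how far the difference between classes varied from library to library. Poisson intervals cover counting error only. The 33 members and the pathway and marker lists were chosen with earlier results of these data known. Values of 1 gene of the pathway lists are not reported here. Values per library are given for called members, up to 12 per comparison, and for a fixed set of regulators, transporters and enzymes.

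On simulated data with log2 fold changes of 2 the tests recovered 32.8% of changed genes for stromal nuclei (59 of 180, 10027 genes tested). For chondrocyte-like nuclei it was 92.8% (181 of 195, 9134 genes tested). The simulation gave all libraries the same expression profile and all genes the same dispersion, 0.113 for stromal and 0.0238 for chondrocyte-like nuclei. It held no difference between libraries or days, so recovery in the real data may differ. Coordinates follow GENCODE vM21 and promoters RefSeq, both on GRCm38. Pseudogenes were aligned with minimap2 2.31 (at least 85% identity over 200 bases). Other versions were R 4.3.3, DESeq2 1.42.0, Python 3.11.15, scanpy 1.11.5, numpy 2.4.6, scipy 1.17.1 and pandas 2.3.3.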

Additional observations from a re-analysis of the deposited data

Results flagged for a closer look

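The day 3 change of Pfkfb3 had opposite signs in different classes of nuclei, with every day 3 library on one side of both uninjured libraries in each class. Its log2 fold change was 0.58 in stromal and -0.94 in endothelial-like nuclei, a difference of 1.52. In immune-like nuclei it was 1.18, which differed from endothelial-like nuclei by 2.12, with 0 UMIs in uninjured replicate 1. Pfkp had a log2 fold change of 0.75 in endothelial-like and -0.45 in immune-like nuclei, a difference of 1.21. Uninjured replicate 1 held 9605 UMIs in immune-like nuclei, so its Pfkp level there rests on very few UMIs. The differences between classes were not tested, and no change was called in any of these classes by edgeR's quasi-likelihood test.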

How the results depend on the processing

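Of 446 values of the 39 called members under the alternatives, 380 kept their direction and their side of the threshold, 65 kept the direction but not the call, and 1 was reversed. The reversed value was Slc2a1 in stromal nuclei, at a log2 fold change of 0.55 without the Luzp2-led cluster. No paired analysis was possible because the labels give no replicate numbers.

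In stromal nuclei the count of members higher at day 3 (6) became 2 with nuclei thinned to 500 UMIs, where 7 members could be tested, and ran from 3 to 11 with 1 library left out. The count lower (1) became 2 with no filter on low counts, 0 without the Luzp2-led cluster, 0 without nuclei that held a myofibre UMI and 0 with thinned nuclei, and ran from 0 to 2 with 1 library left out. Ndrg1 was called lower without day 3 replicate 2 (log2 fold change -3.53, adjusted p = 0.0253, edgeR) and without uninjured replicate 2 (log2 fold change -2.45). In endothelial-like nuclei the count higher (1) became 0 with RLE size factors, 0 with DESeq2, 0 with clusters made without integration, 0 without myofibre UMIs, 0 with thinned nuclei and 2 with no filter, and ran from 0 to 1 with 1 library left out; the count lower (0) became 2 with no filter. Between immune-like and stromal nuclei the count higher (3) became 5 with no filter, and the count lower (5) became 2 with thinned nuclei and ran from 2 to 5 with 1 library left out. In chondrocyte-like nuclei the count higher (23) became 14 with DESeq2, 8 against osteoblast-like nuclei only and 12 with thinned nuclei, and the count lower (0) became 1 with clusters made without integration. Beyond fewer members being testable after thinning, the cause was not tested. All these counts are given without the share of all genes called under the same alternative, so they do not single out the members. No library was left out there, since 1 pair of sums has no residual degrees of freedom.

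Depth limits the stromal comparison, since uninjured replicate 1 held 232767 stromal UMIs and a count of 0 there allows up to 12.9 CPM.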

Other observations

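Nuclei outside the comparisons held some of the highest levels of the glycogen genes. In the myogenic nuclei that were set aside, Gbe1 was at 1141 and 1014 CPM in the uninjured libraries, 1427 and 1053 on day 3, 879 on day 5 and 620 on day 7. Gys1 was at 510 and 395 CPM, then 218 and 340, 268 and 308. Hk2, the main hexokinase of muscle, was at 207 and 331 CPM, then 197 and 186, 117 and 87.4. In each of the 6 libraries all 3 were higher there than in every other population with at least 20 nuclei.

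Adipocyte-like nuclei of uninjured periosteum, 13 and 22 in the 2 libraries, had Pfkfb3 at 367 CPM (12 UMIs) and 946 CPM (211 UMIs) and Bnip3 at 551 CPM (18 UMIs) and 440 CPM (98 UMIs). Ndrg1, which is known for its role in the myelin sheath, was at 312 CPM (13 UMIs) and 468 CPM (57 UMIs) in the 23 and 28 Schwann-like nuclei of the uninjured libraries. In the 178 neutrophil-like nuclei of day 3 replicate 2, Pkm was at 306 CPM, Pfkfb3 at 255 and Slc2a3 at 224. Of the 33 members, 11 were at their highest there among the 7 populations of that library with at least 20 nuclei. The share of all genes highest there was not computed.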
